A study of Mus musculus with 16 samples.

Results

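The genes of the major histocompatibility complex (MHC, called H2 in the mouse) and of antigen presentation were examined in tumors and in the liver around them. They were taken by symbol, as every gene whose symbol starts with H2- plus B2m, Tap1, Tap2, Tapbp, Psmb8, Psmb9, Psmb10, Psme1, Psme2, Cd74, Ciita and Nlrc5. Of 54838 counted genes 57 matched, and 34 of them had at least 160 counts over the 16 libraries, among 14192 genes that reached that total. These 34 members comprise 26 genes of the class I pathway, 7 of the class II pathway and H2-Ke6, an H2- symbol that belongs to neither. H2-Q2 with 389 counts and H2-K2 with 462 were the lowest members, and H2-Ob with 152, H2-M2 with 138 and H2-DMb2 with 136 were the closest genes below the minimum. Of the 23 genes left out, 13 had no count in any library. All 34 members passed the filter on low values and were tested.

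RNA-seq libraries were made from tumor and from peri-tumor liver (the liver tissue around the tumor) of 4 mice on a decoction of traditional Chinese medicine (TCM) and of 4 control mice. All 8 mice, controls included, are given as HrasG12V, an activated form of the Ras oncogene, and each mouse gave 1 library of each tissue. The 4 groups of 4 libraries are thus tumors of TCM mice, tumors of control mice, peri-tumor liver of TCM mice and peri-tumor liver of control mice. DEN, a liver carcinogen, stands in the protocols beside the Ras transgene, and whether these 8 mice received it is not said. The labels also hold 3 months, which may be an age or a length of treatment, and they give no composition or dose of the decoction and no promoter of the transgene.

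MHC class I molecules consist of a heavy chain and the light chain beta-2 microglobulin, and they show peptides cut by the proteasome, in part by its interferon-induced form, and pumped into the endoplasmic reticulum by the transporter TAP. Nearly all cells carry them, and the transactivator Nlrc5 drives many of their genes. Class II molecules are made mainly by dendritic cells, macrophages and B cells, take peptides from endosomes with the help of the invariant chain Cd74 and H2-DM, and depend on the transactivator Ciita. Hepatocytes normally carry little class II.

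Total counts ran from 13947483 to 16194224 per library. Levels of 1 gene are given in CPM (counts scaled to a common library total) for mice 1 to 4 of a group in that order, and levels between genes in the authors' FPKM (counts scaled for gene length and library total). Mouse numbers pair the tissues of a mouse, and mice of the same number in TCM and control are unrelated. Control mouse 4 stood apart from the other control mice. Its summed class I level was 6726 CPM in the tumor and 5659 CPM in peri-tumor liver, against 8559 to 9548 CPM in tumors and 6663 to 7329 CPM in peri-tumor liver of the other 3 control mice. Its summed class II level in peri-tumor liver was 86.6 CPM, against 271 to 455 CPM in the other 3. Counts and calls that change without this mouse are given in both ways. It stood apart by the levels of the members themselves. Leaving it out therefore lowers TCM against control values of the members in which it was low, and calls gained in that way are no separate support. All 6 hepatocyte markers looked at, among them Alb, had counts in the libraries, with a summed level of at least 69240 CPM in each. A gene is called where edgeR's quasi-likelihood test, adjusted by Benjamini-Hochberg over all 14865 genes tested, gave an adjusted p under 0.05, and each log2 fold change carries its standard error (SE).

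By mean FPKM over the 16 libraries, the light chain B2m stood highest of the members at 1653 FPKM, rank 44 among all genes. It was followed by H2-Q10, which encodes a secreted class I chain made in the liver, at 404 FPKM (rank 127), by the classical heavy chains H2-D1 at 302 FPKM and H2-K1 at 164 FPKM, and by Cd74 at 69.5 FPKM. Ciita was lowest at 0.245 FPKM. The order of the heavy chains depends on gene length, since the length behind the deposited FPKM of H2-K1 is 7271 bases and its longest GENCODE M21 transcript has 1874. Per kilobase of the longest transcript, a scale added after these lengths were seen, H2-K1 stood at 632 CPM, close to H2-Q10 at 639 CPM and above H2-D1 at 441 CPM. Differences between groups for 1 gene do not depend on that length.

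Promoters of the 3 most abundant heavy chains are shown because these genes differed from each other between the groups. Sequences run from 250 bases before to 50 bases after the start in RefSeq, build GRCm38.p6. Capitals mark the NF-kappa B site of the class I enhancer A (the longer capital run, searched on both strands) and CCAAT, the Y box bound by NF-Y, on either strand (the Y box reads ATTGG on the other strand).
H2-K1 (chr17:34000298-34000597, minus strand): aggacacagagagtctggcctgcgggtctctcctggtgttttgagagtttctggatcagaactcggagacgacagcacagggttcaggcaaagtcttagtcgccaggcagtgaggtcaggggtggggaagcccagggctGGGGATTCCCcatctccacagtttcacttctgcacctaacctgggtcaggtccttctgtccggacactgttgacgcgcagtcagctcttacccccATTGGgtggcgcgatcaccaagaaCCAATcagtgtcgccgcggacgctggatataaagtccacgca
H2-D1 (chr17:35262844-35263143, plus strand): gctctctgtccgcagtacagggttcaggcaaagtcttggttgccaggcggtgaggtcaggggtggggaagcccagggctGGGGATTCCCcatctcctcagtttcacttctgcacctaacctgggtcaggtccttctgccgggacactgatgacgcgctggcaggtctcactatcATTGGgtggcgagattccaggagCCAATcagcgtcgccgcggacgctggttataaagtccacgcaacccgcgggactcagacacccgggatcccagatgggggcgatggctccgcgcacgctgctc
H2-Q10 (chr17:35469839-35470138, plus strand): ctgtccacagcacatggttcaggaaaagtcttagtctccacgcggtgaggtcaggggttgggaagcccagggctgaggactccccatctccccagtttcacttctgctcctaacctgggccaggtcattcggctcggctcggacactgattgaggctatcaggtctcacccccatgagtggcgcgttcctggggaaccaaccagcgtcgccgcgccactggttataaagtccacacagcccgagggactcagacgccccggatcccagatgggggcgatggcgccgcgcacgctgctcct
H2-K1 and H2-D1 each hold 1 enhancer A site and 2 Y boxes in this window, and the H2-Q10 window holds neither. Of 26 class I members 19 had a promoter in the table, and 4 of these held that enhancer A site (H2-K1, H2-D1, H2-Q6 and H2-Q7), against 0.107% of all 32851 promoters. CCAAT stood in 14 of the 19, against 37.4% of all promoters. The interferon-stimulated response element was searched on both strands as exact matches to a fixed pattern. It was found in that form in 4 of the 19 (B2m, H2-T23, H2-T22 and Psme1), against 3.44% of all. Other forms of this element were not searched, so promoters without a match, H2-K1, H2-D1 and H2-Q10 among them, may still hold one. The gamma-activated site TTCNNNGAA stood in 2 of the 19 (Psmb8 and H2-M3), against 8.30% of all.

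Most non-classical class I heavy chains, those of the Q and T regions among them, rose in tumors against peri-tumor liver. In TCM mice 16 of 26 class I members rose, 61.5% of them against 17.3% of all tested genes, and none fell, against 15.6% of all tested genes. In control mice 11 of 26 rose, 42.3% against 22.0% of all tested genes, and 2 fell, against 21.2% of all tested genes that fell. The median log2 fold change of the 26 was 0.65 in TCM mice and 0.48 in control mice, where the medians over all tested genes were 0.0043 and 0.0010. All 11 that rose in control mice also rose in TCM mice, which is 68.75% of the TCM list and 100% of the control list. The other 5 of the TCM list were H2-D1, H2-K2, H2-Q4, Nlrc5 and Tap2. With the mouse as a block, 14 rose and 1 fell in control mice, against 22.6% and 21.5% of all tested genes. H2-D1 and H2-Q4 were among those 14. In TCM mice 16 rose and none fell with the block, against 17.6% and 16.3% of all tested genes. Without control mouse 4, 13 rose and 3 fell in control mice, against 20.2% and 21.7% of all tested genes. The calls gained were H2-D1 (0.399, adjusted p = 0.014), H2-Q4 (0.52, adjusted p = 0.010) and, among those that fell, the proteasome activator Psme1 (-0.34, adjusted p = 0.022), which had -0.196 (SE 0.13, adjusted p = 0.25) with all mice.

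Of the classical heavy chains, which show peptides to CD8 T cells, H2-D1 had 925, 986, 1057 and 832 CPM in tumors of TCM mice and 1372, 1393, 1347 and 877 CPM in tumors of control mice. H2-D1 had 621, 667, 557 and 587 CPM in peri-tumor liver of TCM mice and 1018, 1016, 1014 and 571 CPM in that of control mice. Every TCM tumor lay above every TCM peri-tumor library, and in control mice the tumor was higher in each of the 4 mice while the groups overlapped through mouse 4. The log2 fold change was 0.64 (SE 0.19, adjusted p = 0.015) in TCM mice and 0.46 (SE 0.19, adjusted p = 0.057) in control mice, and with the mouse as a block the control value was 0.48 (adjusted p = 0.0054). H2-K1 had 1092, 1313, 1279.8 and 1002 CPM in tumors of TCM mice and 1418, 1395, 1396 and 839.5 CPM in tumors of control mice. Around the tumors, H2-K1 had 959.9, 1056, 973 and 948 CPM in TCM mice and 1531, 1498, 1397 and 848 CPM in control mice. Tumor and peri-tumor levels overlapped in both treatments, and the log2 fold change of 0.25 (SE 0.19, adjusted p = 0.35) in TCM mice and -0.063 (SE 0.19, adjusted p = 0.82) in control mice passed no test. The H2-D1 to H2-K1 ratio of FPKM was 1.904 ± 0.0997 in TCM tumors and 2.33 ± 0.08704 in control tumors, and 1.44 ± 0.0752 in TCM and 1.605 ± 0.0635 in control peri-tumor liver (mean ± SD, n = 4). Within each treatment every tumor had a higher ratio than every peri-tumor library.

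Of 14 non-classical heavy chains, 12 rose in tumors of TCM mice and 10 in tumors of control mice, against 17.3% and 22.0% of all tested genes. H2-Q1, a chain of the Q region, had 54.8, 56.1, 115 and 62.6 CPM in tumors of TCM mice and 58.8, 59.3, 32.98 and 47.8 CPM in tumors of control mice. Peri-tumor values of H2-Q1 were 7.801, 3.58, 9.899 and 9.53 CPM in TCM mice and 14.1, 17.1, 18.5 and 13.6 CPM in control mice. No tumor overlapped with peri-tumor liver in either treatment, and the log2 fold change was 3.23 (SE 0.32, adjusted p = 3.1e-06) in TCM mice and 1.65 (SE 0.29, adjusted p = 3.2e-04) in control mice. H2-Q2, its neighbor in the same region, had 2.13, 4.09, 4.11 and 2.19 CPM in tumors of TCM mice and 3.04, 2.49, 2.57 and 2.27 CPM in tumors of control mice. H2-Q2 had 0, 0.0675, 0.453 and 0.256 CPM in peri-tumor liver of TCM mice and 0.191, 0.726, 0.445 and 0.279 CPM in that of control mice, so that every tumor lay above every peri-tumor library. Its log2 fold change was 3.99 (SE 0.55, adjusted p = 6.5e-05) in TCM mice and 2.62 (SE 0.49, adjusted p = 5.0e-04) in control mice, and 4.74 in TCM mice without the peri-tumor library of TCM mouse 3. The pseudogene H2-T-ps had 8.81, 8.19, 8.87 and 8.21 CPM in tumors of TCM mice and 12.6, 10.04, 10.2 and 7.88 CPM in tumors of control mice. Around the tumors, H2-T-ps had 2.31, 2.497, 2.49 and 2.302 CPM in TCM mice and 2.61, 2.54, 4.52 and 2.93 CPM in control mice. Its groups did not overlap in either treatment, with log2 fold changes of 1.82 (SE 0.19, adjusted p = 4.9e-06) in TCM and 1.69 (SE 0.18, adjusted p = 3.4e-06) in control mice. H2-T-ps shares 29.4% of its 50-base words with other genes, H2-Q1 16.1% and H2-Q2 8.74%, and the counting does not tell how such reads were placed. The other genes of H2-Q1 include the far more abundant H2-D1 and H2-Q10.

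H2-Q10 had 3359.7, 3191, 4441 and 4923 CPM in tumors of TCM mice and 3221, 3068, 2504 and 2654 CPM in tumors of control mice. Peri-tumor values of H2-Q10 were 2277, 2196, 2383 and 2402 CPM in TCM mice and 1952, 1492, 1774 and 2429.8 CPM in control mice. Tumors lay above peri-tumor liver without overlap in both treatments, and the log2 fold change was 0.78 (SE 0.17, adjusted p = 0.0028) in TCM mice and 0.58 (SE 0.17, adjusted p = 0.013) in control mice. Without the peri-tumor library of control mouse 2 the control value was 0.46 (adjusted p = 0.055). H2-T22, a ligand of gamma delta T cells, had 170.3, 218, 218 and 163 CPM in tumors of TCM mice and 327, 309, 265 and 181 CPM in tumors of control mice. H2-T22 had 124, 136, 118 and 125 CPM in peri-tumor liver of TCM mice and 178, 189, 183 and 136 CPM in that of control mice. The TCM groups did not overlap, the control groups overlapped through mouse 4, and the log2 fold change was 0.61 (SE 0.17, adjusted p = 0.01) in TCM mice and 0.66 (SE 0.17, adjusted p = 0.0046) in control mice. H2-K2, a transcribed pseudogene at the end of the region next to H2-K1, had 2.01, 2.17, 2.81 and 3.15 CPM in tumors of TCM mice and 2.28, 1.45, 1.16 and 2.09 CPM in tumors of control mice. Around the tumors, H2-K2 had 0.859, 1.55, 0.907 and 1.79 CPM in TCM mice and 2.102, 2.96, 1.15 and 1.604 CPM in control mice. Its log2 fold change was 0.98 (SE 0.33, adjusted p = 0.035) in TCM mice, and the call was lost without the tumor library of TCM mouse 3 or 4 or the peri-tumor library of TCM mouse 1 or 3, with adjusted p of 0.074 to 0.10.

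The remaining non-classical chains that rose in both treatments were H2-T23, H2-Q7, H2-Q6, H2-Q5 and H2-T10. H2-T23, which encodes Qa-1, the ligand of an inhibitory receptor of NK cells, averaged 388 ± 115 CPM in TCM tumors, against 259 ± 24.1 CPM in TCM peri-tumor liver (SD, n = 4), and 458 ± 105.8 CPM in control tumors, against 302 ± 30.6 CPM in control peri-tumor liver. Its log2 fold change was 0.58 (SE 0.19, adjusted p = 0.029) in TCM mice and 0.602 (SE 0.19, adjusted p = 0.019) in control mice. The TCM call was lost without the tumor library of mouse 2 or 3 or the peri-tumor library of mouse 1, 3 or 4 (adjusted p up to 0.12). The control call was lost without the tumor library of mouse 1 or 2 or the peri-tumor library of mouse 2 (up to 0.096). H2-Q7, a Qa-2 gene, had a log2 fold change of 0.73 (SE 0.19) in TCM and 0.91 (SE 0.19) in control mice, and both calls held without any 1 library. H2-Q5 had 1.05 (SE 0.28) in TCM and 0.75 (SE 0.27) in control mice, where the control call was lost without the tumor library of control mouse 1 or 2 or the peri-tumor library of control mouse 2, 3 or 4 (adjusted p up to 0.17). H2-Q4 had 0.89 (SE 0.23, adjusted p = 0.0073) in TCM and 0.502 (SE 0.23, adjusted p = 0.089) in control mice, and with the mouse as a block the control value was 0.47 (adjusted p = 0.0064). H2-M3, which shows formylated peptides, and H2-T24 passed the test in neither treatment without the block, and with it H2-M3 had 0.62 (adjusted p = 0.040) in control mice. H2-Q5, H2-Q6, H2-Q7, H2-T10 and H2-T22 share 28.4% to 35.8% of their 50-base words with other genes, and exons of H2-T22 and H2-T10 overlap genes on the opposite strand over 29.4% and 27.1% of their bases, genes that held 2 and 0 counts over all libraries. The sources used here do not say whether the counting used strand, and reads of near-identical chains may have been split between them.

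**Figure D1:**
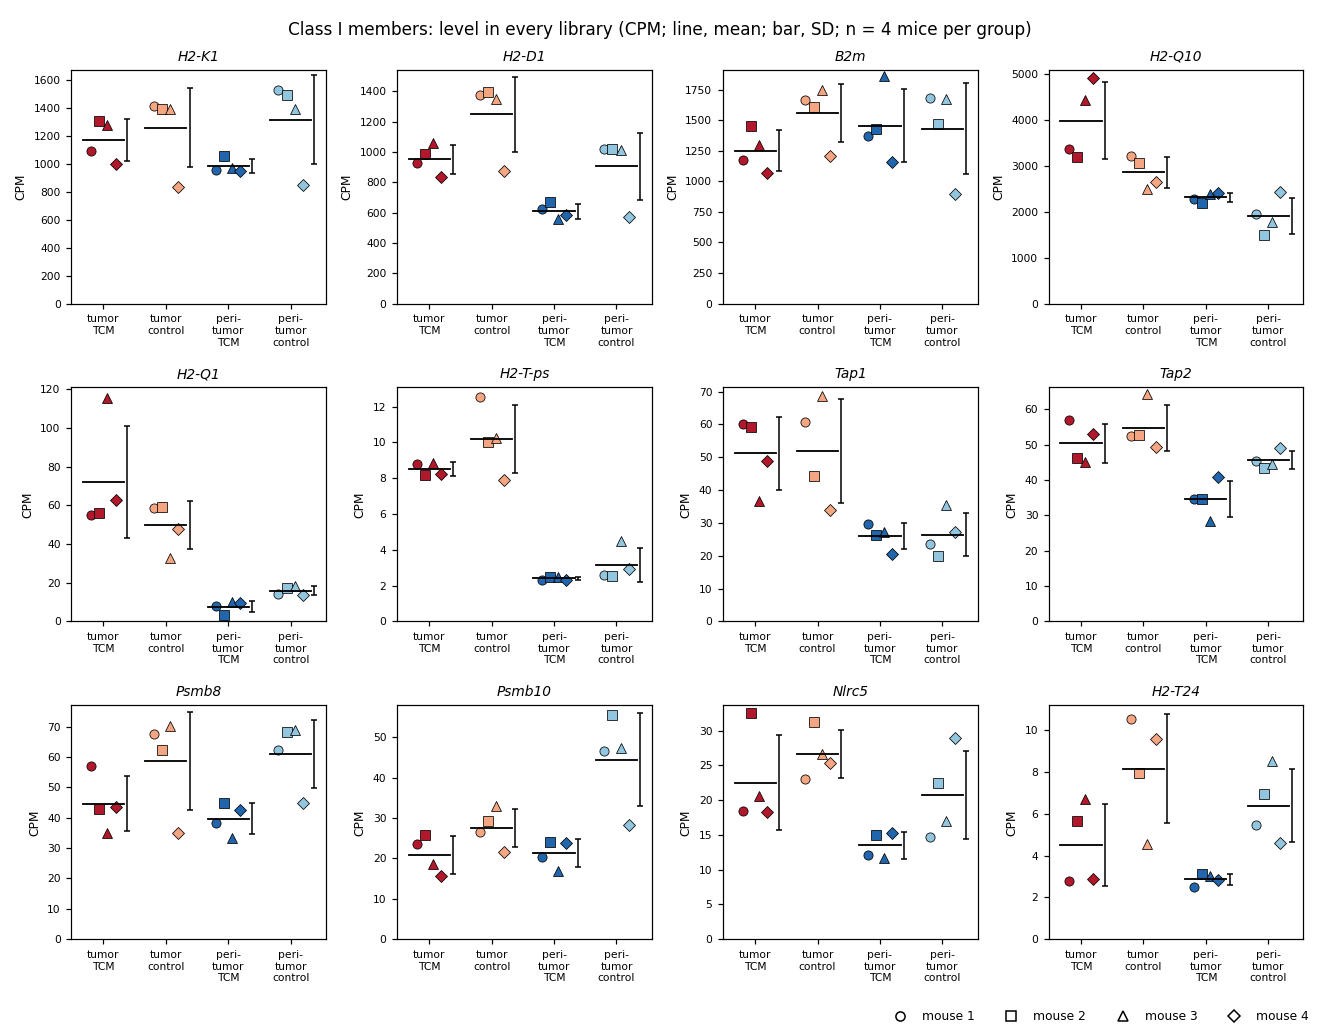
CPM of 12 class I members in tumors of TCM mice, tumors of control mice, peri-tumor liver of TCM mice and peri-tumor liver of control mice, with 1 symbol per mouse, a line at the mean and a bar for the SD (n = 4). H2-Q1 and H2-T-ps lie far above peri-tumor liver in all tumors, H2-K1 does not, and control mouse 4 (pale diamonds) is low for H2-K1 and H2-D1 in both tissues.

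Outside the heavy chains, Tap1 rose in tumors of both treatments and Tap2 and Nlrc5 rose in tumors of TCM mice, while B2m and the immunoproteasome subunits rose in neither. B2m had 1177, 1455, 1298 and 1064 CPM in tumors of TCM mice and 1668, 1604, 1747 and 1209 CPM in tumors of control mice. Peri-tumor values of B2m were 1372, 1425, 1865 and 1161 CPM in TCM mice and 1683, 1468, 1674 and 893 CPM in control mice. All groups overlapped, and its log2 fold change was -0.22 (SE 0.203, adjusted p = 0.44) in TCM mice and 0.12 (SE 0.203, adjusted p = 0.66) in control mice. Set against the summed FPKM of the heavy chains, B2m stood at 1.22, 1.43, 1.08 and 0.962 in TCM tumors and 1.38, 1.36, 1.66 and 1.48 in control tumors. In peri-tumor liver that ratio was 2.07, 2.07, 2.84 and 1.74 in TCM mice and 1.9997, 1.88, 2.103 and 1.35 in control mice. Every TCM tumor lay below every TCM peri-tumor library, and the control groups overlapped through mouse 4. Per kilobase of the longest transcript the ratio averaged 0.62 ± 0.093 in TCM tumors and 0.77 ± 0.068 in control tumors. In peri-tumor liver it averaged 1.09 ± 0.23 in TCM and 0.89 ± 0.14 in control mice (SD, n = 4). The level of the ratio thus depends on the lengths used, while tumor and peri-tumor libraries overlapped in the same way.

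Tap1, a TAP subunit, had 60.04, 59.3, 36.6 and 48.7 CPM in tumors of TCM mice and 60.7, 44.2, 68.8 and 33.97 CPM in tumors of control mice. Tap1 had 29.8, 26.4, 27.1 and 20.4 CPM in peri-tumor liver of TCM mice and 23.5, 19.8, 35.4 and 27.2 CPM in that of control mice. It rose in both treatments, with 0.98 (SE 0.23, adjusted p = 0.0036) in TCM and 0.97 (SE 0.23, adjusted p = 0.0027) in control mice on the log2 scale. Tap2, the other subunit, had 56.9, 46.3, 45.01 and 53.1 CPM in tumors of TCM mice and 52.5, 52.6, 64.3 and 49.3 CPM in tumors of control mice. Around the tumors, Tap2 had 34.6, 34.8, 28.3 and 40.9 CPM in TCM mice and 45.4, 43.5, 44.4 and 49.1 CPM in control mice. It rose in TCM mice, without overlap between the groups (0.54 (SE 0.12, adjusted p = 0.0026)), and its value in control mice was 0.26 (SE 0.12, adjusted p = 0.087). Tapbp, the tapasin that holds TAP and the heavy chain together, had 0.38 (SE 0.21) in TCM and 0.398 (SE 0.205) in control mice and passed neither test.

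Of the 3 subunits of the immunoproteasome none rose in tumors of either treatment. Psmb8 had 56.9, 42.8, 34.98 and 43.5 CPM in tumors of TCM mice and 67.5, 62.3, 70.1 and 34.8 CPM in tumors of control mice. Peri-tumor values of Psmb8 were 38.2, 44.9, 33.2 and 42.5 CPM in TCM mice and 62.2, 68.2, 68.8 and 44.9 CPM in control mice. Tumor and peri-tumor levels overlapped, with log2 fold changes of 0.17 (SE 0.21, adjusted p = 0.57) in TCM and -0.057 (SE 0.204, adjusted p = 0.85) in control mice. Psmb10 had 23.5, 25.8, 18.7 and 15.5 CPM in tumors of TCM mice and 26.6, 29.2, 32.8 and 21.7 CPM in tumors of control mice. Psmb10 had 20.2, 24.2, 16.9 and 23.9 CPM in peri-tumor liver of TCM mice and 46.6, 55.4, 47.2 and 28.2 CPM in that of control mice. It fell in tumors of control mice (-0.69 (SE 0.204, adjusted p = 0.012)), lower in the tumor of each of the 4 mice, and its value in TCM mice was -0.027 (SE 0.21, adjusted p = 0.94). The proteasome activator Psme2 fell in tumors of control mice by 0.31 on the log2 scale (SE 0.12, adjusted p = 0.049). That call was lost with the mouse as a block (adjusted p = 0.062) and without the tumor library of control mouse 1, 3 or 4 or the peri-tumor library of control mouse 1 or 3, and Psme2 shares 59.3% of its 50-base words with other genes. Among 16 subunits and caps of the constitutive proteasome 6 fell in TCM tumors and 4 in control tumors, against 15.6% and 21.2% of all tested genes. None rose, against 17.3% and 22.0% of all tested genes.

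Nlrc5 had 18.5, 32.6, 20.6 and 18.3 CPM in tumors of TCM mice and 23.01, 31.2, 26.7 and 25.4 CPM in tumors of control mice. Around the tumors, Nlrc5 had 12.1, 15.05, 11.6 and 15.3 CPM in TCM mice and 14.6, 22.5, 17.05 and 28.9 CPM in control mice. Every TCM tumor lay above every TCM peri-tumor library, and the control groups overlapped. Its log2 fold change was 0.73 (SE 0.22, adjusted p = 0.016) in TCM mice, where it was 0.51 (adjusted p = 0.063) without the tumor library of TCM mouse 2, and 0.36 (SE 0.21, adjusted p = 0.19) in control mice.

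In peri-tumor liver, class I genes had mostly negative log2 fold changes between TCM and control mice, with few calls. Of 26 class I members 24 had a negative log2 fold change and 4 fell (15.4%, against 7.35% of all tested genes), none rose (against 6.71%), and the median was -0.39, against -0.0042 over all tested genes. Psmb10 fell to 21.3 ± 3.46 CPM in TCM peri-tumor liver, against 44.3 ± 11.5 CPM in control peri-tumor liver (SD, n = 4), without overlap (log2 fold change -1.06 (SE 0.21, adjusted p = 0.0047)). This call held without any 1 library. H2-Q1 fell, with a log2 fold change of -1.04 (SE 0.303, adjusted p = 0.033), and every TCM library lay below every control library. H2-T24 had 2.795, 5.65, 6.71 and 2.87 CPM in tumors of TCM mice and 10.5, 7.97, 4.56 and 9.55 CPM in tumors of control mice. Peri-tumor values of H2-T24 were 2.51, 3.104, 3.02 and 2.81 CPM in TCM mice and 5.48, 6.96, 8.52 and 4.604 CPM in control mice. It fell in peri-tumor liver, with a log2 fold change of -1.16 (SE 0.31, adjusted p = 0.024), again without overlap, and Tap2 fell, with a log2 fold change of -0.39 (SE 0.12, adjusted p = 0.039). The calls of H2-Q1, H2-T24 and Tap2 were each lost without 1 library, with adjusted p of at most 0.086, 0.076 and 0.11. For H2-Q1 this held for the libraries of TCM mouse 1 or 2 and control mouse 1, 2 or 3, for H2-T24 for TCM mouse 1, 3 or 4 and control mouse 2 or 3, and for Tap2 for TCM mouse 1, 2 or 3 and any control mouse.

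Leaving out both libraries of control mouse 4 moved the count in peri-tumor liver to 11 class I members that fell, while the share of all tested genes that fell was 11.5% without this mouse and 7.35% with it. This mouse had the lowest class I sum of the control peri-tumor libraries, so the added calls are no separate support. H2-K1 then had a log2 fold change of -0.59 (adjusted p = 0.0028) and H2-D1 one of -0.75 (adjusted p = 0.00046), where the values with all mice were -0.42 (SE 0.19, adjusted p = 0.16) and -0.57 (SE 0.19, adjusted p = 0.052). Tap2 lost its call without this mouse (-0.36, adjusted p = 0.054). The other class I members that fell only without it were Psmb8, H2-T22, H2-Q4, H2-Q6, H2-M3 and Psme2, with log2 fold changes of -0.44 (Psme2) to -0.79 (H2-M3). B2m gave 0.026 (SE 0.203, adjusted p = 0.95) and H2-Q10 0.28 (SE 0.17, adjusted p = 0.31) with all mice, the only positive values among the 26.

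In tumors no class I member was called between TCM and control mice by edgeR, against 7.28% of all tested genes. An unadjusted p under 0.05 was found for 5 of 26 members and for 3672 of all 14865 tested genes. The median log2 fold change of the 26 members was -0.25, and 22 of 26 were negative. H2-T22 and H2-T10 gave -0.496 (SE 0.17, adjusted p = 0.081) and -0.49 (SE 0.201, adjusted p = 0.14), and H2-Q10 gave 0.48 (SE 0.17, adjusted p = 0.10), in the opposite direction. DESeq2 called 2 members (H2-Q10 higher and H2-T22 lower) and limma-voom 3 (H2-D1, H2-T22 and H2-T10, all lower), against 12.1% and 14.8% of all tested genes. Without both libraries of control mouse 4, edgeR called 6 members, all lower, among them H2-D1 at -0.49 (adjusted p = 0.011), and without only its tumor library 4. All tested genes gained calls as well, with 12.49% of genes called without this mouse (3.95% of genes lower), against 7.28% with it. Whether the tumor effect differed between treatments was tested by the interaction, where no class I member was called, against 1.11% of all tested genes. An unadjusted p under 0.05 was found there for 3 class I members and for 2599 of all 14865 tested genes. H2-Q1 had the lowest p of the class I members there, with a difference of 1.58 (SE 0.41, adjusted p = 0.07) in the log2 tumor effect, TCM minus control. It was called by DESeq2 (adjusted p = 0.011), by limma-voom (0.034) and without the peri-tumor library of control mouse 4 (1.65, adjusted p = 0.046). These fits also called more of all tested genes, 5.42% with DESeq2, 4.06% with limma-voom and 4.39% without that library. That library had the lowest H2-Q1 level of the control peri-tumor libraries, so the call gained without it is no separate support.

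Of the summed class I heavy chain FPKM, the H2-Q10 share was 43.6, 39.3, 46.1 and 55.6% in TCM tumors and 33.3, 32.6, 29.8 and 40.6% in control tumors. In peri-tumor liver it was 42.99, 39.9, 45.3 and 44.9% in TCM mice and 28.997, 23.8, 27.9 and 46.1% in control mice. The groups overlapped in both tissues through control mouse 4, the control mouse with the highest share in each tissue. The H2-D1 share averaged 24.7 ± 2.82% in TCM tumors and 32.4 ± 2.46% in control tumors, without overlap, and 25.1 ± 1.53% in TCM and 32.2 ± 5.56% in control peri-tumor liver (SD, n = 4). Per kilobase of the longest transcript the H2-D1 share was 19.3 ± 1.83% in TCM tumors and 25.1 ± 1.62% in control tumors, and the H2-Q10 share was 39.0 ± 6.79% and 28.5 ± 4.199% in the same groups.

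**Figure D2:**
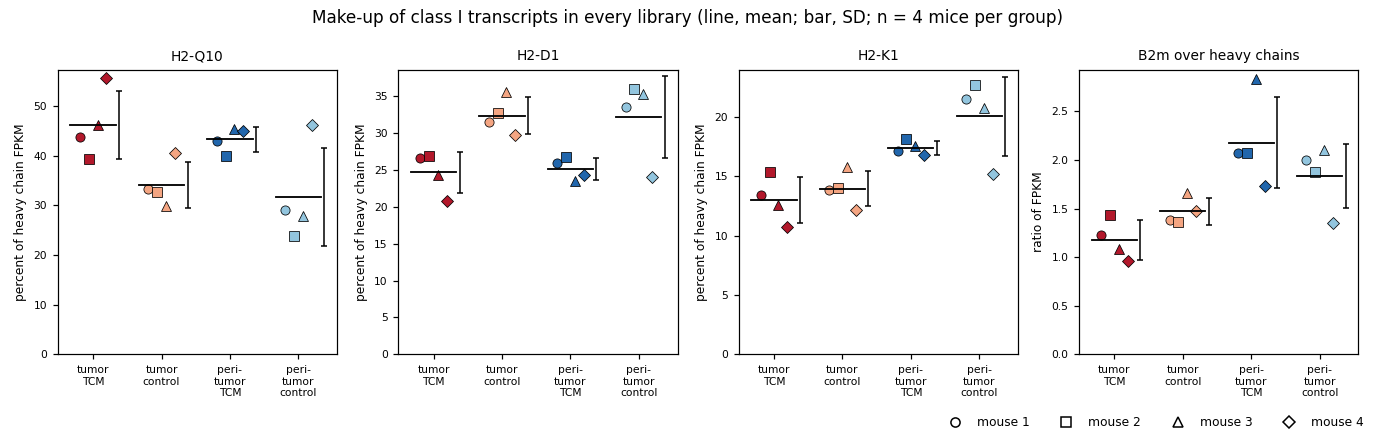
Share of the summed class I heavy chain FPKM taken by H2-Q10, H2-D1 and H2-K1 (percent) and ratio of B2m FPKM to that sum, in every library by group, with 1 symbol per mouse, a line at the mean and a bar for the SD (n = 4). The H2-D1 share of TCM tumors lies below that of all control tumors, and B2m per heavy chain is lower in TCM tumors than in TCM peri-tumor liver.

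Of the 7 class II members 2, H2-Eb1 and Ciita, rose in tumors against peri-tumor liver of TCM mice (28.6%, against 17.3% of all tested genes), and each of these calls was lost without 1 of several single libraries. All 7 log2 fold changes were positive there, with a median of 1.17. In control mice 6 of 7 were positive with a median of 0.45, and edgeR called none, against 43.2% of all tested genes. None had an unadjusted p under 0.05, against 7436 of all 14865 tested genes. With the mouse as a block, 5 of 7 rose in TCM mice, against 17.6% of all tested genes in that fit, and 1 of 7 (H2-Eb1) in control mice, against 22.6%. In bulk tissue fewer cells of a type and less RNA per cell cannot be told apart. Of the 7 class II members 4 had a promoter in the table, and those of 2 chain genes on opposite strands are shown as examples of the class, with CCAAT on either strand in capitals. CCAAT stood in 3 of the 4, and none of the 4 held an exact match to the other 3 motifs.
H2-Aa (chr17:34287774-34288073, minus strand): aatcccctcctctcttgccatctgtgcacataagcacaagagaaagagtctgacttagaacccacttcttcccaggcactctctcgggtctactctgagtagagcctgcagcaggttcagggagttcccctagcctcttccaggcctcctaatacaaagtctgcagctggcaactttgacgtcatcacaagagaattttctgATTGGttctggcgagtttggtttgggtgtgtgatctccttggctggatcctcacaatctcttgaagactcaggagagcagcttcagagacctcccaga
H2-Eb1 (chr17:34305617-34305916, plus strand): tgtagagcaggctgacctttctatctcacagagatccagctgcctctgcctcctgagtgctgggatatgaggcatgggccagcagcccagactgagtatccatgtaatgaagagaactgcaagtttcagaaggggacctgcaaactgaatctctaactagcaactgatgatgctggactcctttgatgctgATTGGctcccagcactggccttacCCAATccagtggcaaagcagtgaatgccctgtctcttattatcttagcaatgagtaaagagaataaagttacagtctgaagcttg

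H2-Aa encodes the alpha chain of I-A and had 64.6, 64.03, 16.2 and 34.5 CPM in tumors of TCM mice and 50.4, 71.4, 66.9 and 43.6 CPM in tumors of control mice. H2-Aa had 15.7, 27.3, 12.9 and 22.7 CPM in peri-tumor liver of TCM mice and 37.6, 63.2, 37.1 and 11.4 CPM in that of control mice. TCM mouse 3 was the lowest of its group in both tissues, and control mouse 4 fell to the level of the TCM mice in peri-tumor liver. The log2 fold change between tumor and peri-tumor liver was 1.19 (SE 0.45, adjusted p = 0.054) in TCM mice and 0.64 (SE 0.44, adjusted p = 0.27) in control mice. H2-Ab1, the beta chain of I-A, had 68.4, 55.96, 21.6 and 37.9 CPM in tumors of TCM mice and 51.98, 79.6, 70.6 and 41.4 CPM in tumors of control mice. Around the tumors, H2-Ab1 had 18.5, 25.3, 11.1 and 26.7 CPM in TCM mice and 44.8, 76.9, 44.98 and 13.3 CPM in control mice. The order of the mice was close to that for H2-Aa, and the log2 fold change was 1.17 (SE 0.44, adjusted p = 0.052) in TCM and 0.43 (SE 0.43, adjusted p = 0.44) in control mice. H2-Eb1, the beta chain of I-E, had 74.4, 67.3, 20.4 and 42.5 CPM in tumors of TCM mice and 50.5, 75.7, 75.3 and 47.4 CPM in tumors of control mice. H2-Ea-ps, a polymorphic pseudogene for the I-E alpha chain, had no count in any library. Whether I-E molecules were made was not tested. Peri-tumor values of H2-Eb1 were 15.9, 25.4, 10.1 and 20.98 CPM in TCM mice and 36.9, 62.4, 36.6 and 8.72 CPM in control mice. It rose in TCM mice (1.499 (SE 0.48, adjusted p = 0.023)), with overlap only through the tumor of mouse 3, and gave 0.78 (SE 0.46, adjusted p = 0.19) in control mice. The TCM call was lost without the tumor library of TCM mouse 1 or 2 or the peri-tumor library of TCM mouse 1 or 3 (adjusted p up to 0.070). With the mouse as a block the control value was 1.01 (adjusted p = 0.028).

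Cd74 had 189, 219.6, 61.02 and 107 CPM in tumors of TCM mice and 157, 233, 223 and 139 CPM in tumors of control mice. Cd74 had 62.3, 93.7, 56.5 and 81.5 CPM in peri-tumor liver of TCM mice and 133, 225, 147 and 47.2 CPM in that of control mice. The tumor was higher in each of the 8 mice, with log2 fold changes of 0.97 (SE 0.41, adjusted p = 0.081) in TCM and 0.45 (SE 0.41, adjusted p = 0.40) in control mice. Ciita had 6.502, 4.78, 1.803 and 2.19 CPM in tumors of TCM mice and 3.297, 4.02, 5.72 and 3.702 CPM in tumors of control mice. Around the tumors, Ciita had 0.992, 1.35, 1.44 and 1.53 CPM in TCM mice and 1.34, 6.29, 2.61 and 0.837 CPM in control mice. It rose in TCM mice without overlap between the groups (1.53 (SE 0.53, adjusted p = 0.037)) and gave 0.58 (SE 0.499, adjusted p = 0.37) in control mice, where mouse 2 had the highest peri-tumor level of all. The TCM call was lost with the mouse as a block (1.37, adjusted p = 0.057). It was also lost without the tumor library of TCM mouse 1 or 2 or the peri-tumor library of any TCM mouse, with adjusted p up to 0.13. The control value became 1.36 (adjusted p = 0.025) without the peri-tumor library of control mouse 2. That library held the highest peri-tumor level, so the call gained without it is no separate support. With the mouse as a block H2-Ab1 (adjusted p = 0.0091), H2-Aa (0.026), H2-DMb1 (0.042) and Cd74 (0.044) rose in TCM mice. The same 4 genes rose without the tumor library of TCM mouse 3 (adjusted p of 0.015 to 0.042). That library had the lowest level of each of them among the TCM tumors, so the calls gained without it are no separate support.

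Of the 7 class II members 2, H2-DMb1 and H2-DMa, fell in peri-tumor liver of TCM mice against that of control mice (28.6%, against 7.35% of all tested genes). All 7 log2 fold changes were negative, with a median of -1.07. Both called members are subunits of H2-DM, which exchanges the peptide of class II molecules. H2-DMb1 had 6.75, 6.08, 2.89 and 3.76 CPM in tumors of TCM mice and 6.59, 10.04, 8.48 and 5.91 CPM in tumors of control mice. Peri-tumor values of H2-DMb1 were 2.58, 3.04, 2.19 and 2.88 CPM in TCM mice and 8.15, 10.2, 8.78 and 2.58 CPM in control mice. Control mouse 4 alone lay among the TCM mice, and H2-DMb1 fell in peri-tumor liver, with a log2 fold change of -1.47 (SE 0.36, adjusted p = 0.015). That call held without any 1 library, and H2-DMb1 shares 27.2% of its 50-base words with other genes. H2-DMa had 7.41, 6.64, 4.33 and 4.31 CPM in tumors of TCM mice and 5.52, 9.56, 6.88 and 6.09 CPM in tumors of control mice. H2-DMa had 3.11, 4.79, 3.48 and 2.81 CPM in peri-tumor liver of TCM mice and 8.85, 11.01, 8.27 and 2.58 CPM in that of control mice. It fell in peri-tumor liver, with a log2 fold change of -1.12 (SE 0.35, adjusted p = 0.043), and the call was lost without the library of TCM mouse 1, 3 or 4 or of control mouse 1, 2 or 3 (adjusted p up to 0.14). Exons of H2-DMa overlap the abundant gene Brd2 on the opposite strand over 10.4% of their bases.

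The 5 other class II members had log2 fold changes of -0.91 (Cd74) to -1.14 (H2-Ab1) between TCM and control peri-tumor liver, with adjusted p of 0.094 to 0.20. Without both libraries of control mouse 4, 6 of 7 fell, all but Ciita, against 11.5% of all tested genes in that fit, with H2-Ab1 at -1.45 (adjusted p = 0.012) and Cd74 at -1.20 (adjusted p = 0.025). This mouse had the lowest class II sum of the control peri-tumor libraries, so the added calls are no separate support. In tumors edgeR called no class II member between TCM and control mice, against 7.28% of all tested genes. None had an unadjusted p under 0.05, against 3672 of all 14865 tested genes. All 7 values were negative there with a median of -0.37, and H2-DMb1 had the lowest adjusted p (-0.66 (SE 0.34, adjusted p = 0.24)). DESeq2, limma-voom and the other settings tried also called none. The interaction between tissue and treatment called none of the 7, with adjusted p of at least 0.41, against 1.11% of all tested genes called. None had an unadjusted p under 0.05, against 2599 of all 14865 tested genes. The larger median tumor effect of TCM mice was thus not shown to differ from that of control mice.

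**Figure D3:**
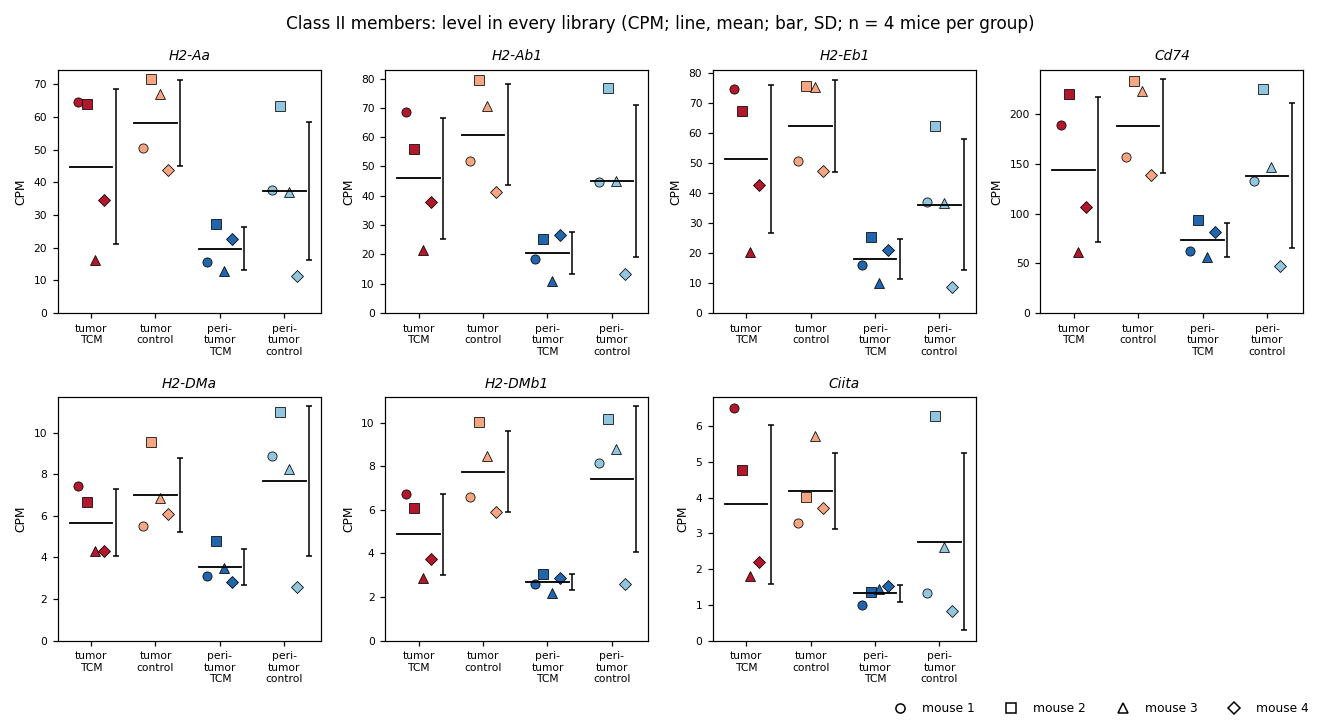
CPM of the 7 class II members in tumors of TCM mice, tumors of control mice, peri-tumor liver of TCM mice and peri-tumor liver of control mice, with 1 symbol per mouse, a line at the mean and a bar for the SD (n = 4). Peri-tumor liver of TCM mice is uniformly low, control mouse 4 (pale diamond) reaches the same low level there, and TCM tumors spread widely.

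**Figure D4:**
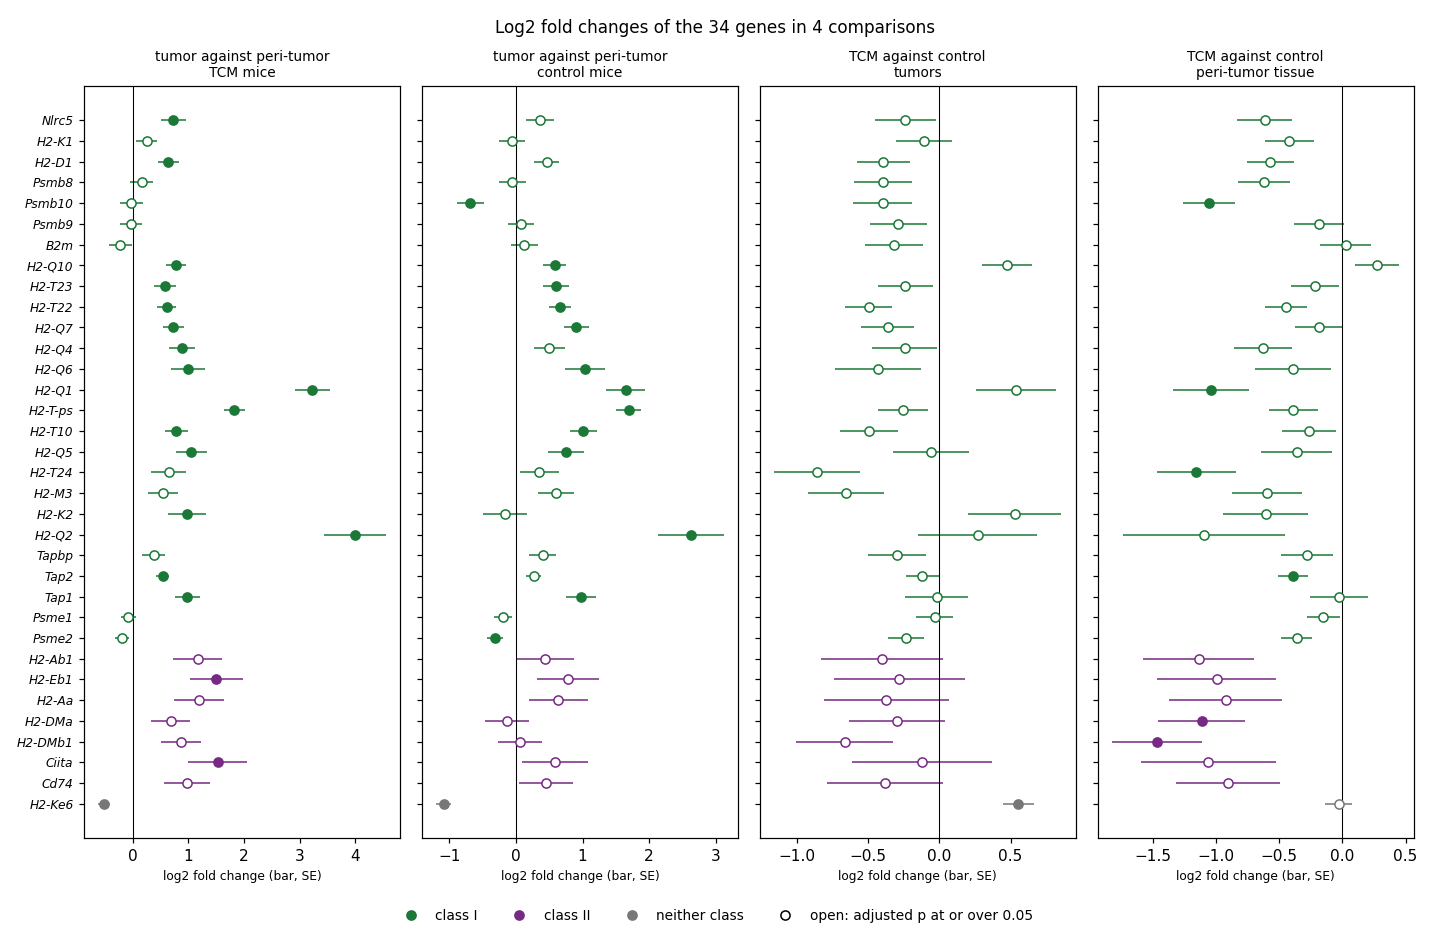
Log2 fold changes of the 34 members, in role order from Nlrc5 to H2-Ke6, for tumor against peri-tumor in TCM mice, the same in control mice, TCM against control in tumors and TCM against control in peri-tumor liver, with bars for the SE and filled symbols at adjusted p under 0.05. Class I (green) lies mostly right of 0 in tumors, and class II (purple) lies left of 0 in peri-tumor liver of TCM mice.

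Leukocyte markers are given beside the class II levels. The summed class II level was 418, 424, 128 and 232 CPM in TCM tumors and 325, 483, 457 and 287 CPM in control tumors, and 119, 181, 97.7 and 159 CPM in TCM and 271, 455, 285 and 86.6 CPM in control peri-tumor liver. Ptprc, the common leukocyte antigen CD45, had 19.7, 21.2, 5.91 and 11.1 CPM in TCM tumors and 21.4, 19.9, 29.9 and 34.7 CPM in control tumors, and 7.73, 7.49, 7.78 and 9.47 CPM in TCM and 13.8, 20.8, 22.5 and 9.63 CPM in control peri-tumor liver. TCM mouse 3 had the lowest tumor values of both, and control mouse 4 the lowest peri-tumor values of both among control mice, while its tumor had the highest Ptprc level of all libraries. Class II CPM per Ptprc CPM ran from 20.1 to 21.7 in TCM tumors, against 8.26 to 24.2 in control tumors, and from 12.6 to 24.1 in TCM peri-tumor liver, against 9.0 to 21.8 in control peri-tumor liver. These ratios overlapped between the groups in all comparisons of treatment. Ptprc gave -0.87 (SE 0.33, adjusted p = 0.12) between TCM and control tumors and -1.04 (SE 0.34, adjusted p = 0.055) between TCM and control peri-tumor liver. Of 3 general leukocyte markers looked at, Ptprc among them, 1 other than Ptprc was lower in TCM than in control tumors, against 2.72% of all tested genes. In peri-tumor liver 1 other than Ptprc was lower as well, against 7.35%. Against peri-tumor liver 1 of the 3 rose in TCM tumors and none in control tumors, against 17.3% and 22.0%.

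**Figure D5:**
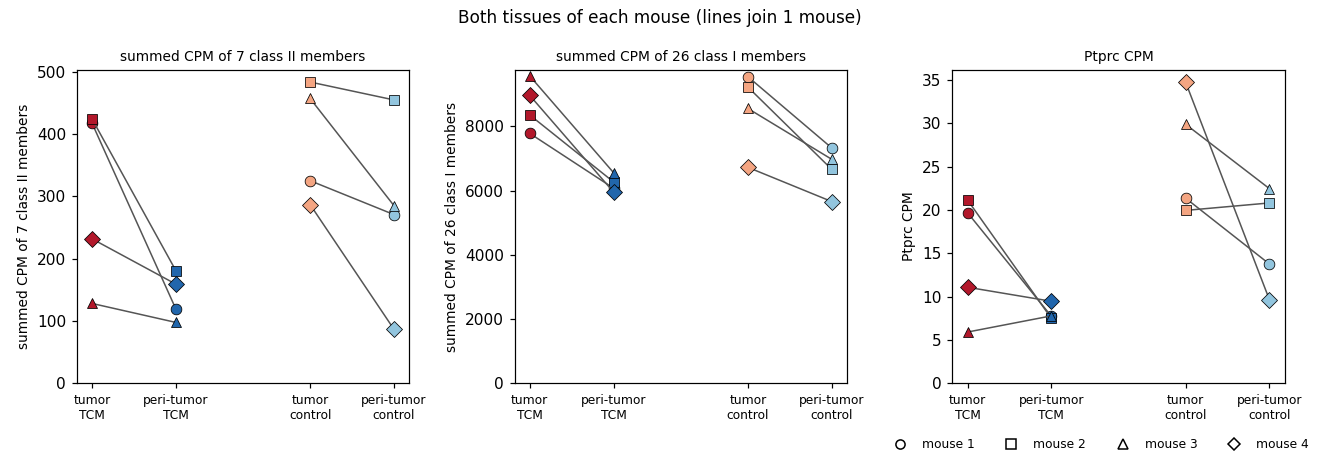
Summed CPM of the 7 class II members, summed CPM of the 26 class I members and CPM of Ptprc in the tumor and peri-tumor library of each mouse, joined by a line. The class II and class I sums are higher in the tumor of all 8 mice, and Ptprc is lower in the tumor than in peri-tumor liver of TCM mouse 3 and control mouse 2.

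Of 8 tested dendritic cell markers, 5 rose in TCM tumors and 3 in control tumors, led by Itgax (3.21 (SE 0.65, adjusted p = 0.0014) in TCM and 2.81 (SE 0.58, adjusted p = 9.8e-04) in control mice), and in peri-tumor liver of TCM mice 2 fell, Irf8 (-1.300 (SE 0.29, adjusted p = 0.0099)) and Batf3 (-1.396 (SE 0.36, adjusted p = 0.02)). All 10 listed dendritic markers had counts, and their summed level was 15.9 to 34.7 CPM in TCM tumors and 25.7 to 37.6 CPM in control tumors, and 12.6 to 15.7 CPM in TCM and 18.0 to 30.6 CPM in control peri-tumor liver. Of 8 markers of recruited macrophages and monocytes, 5 rose in TCM tumors and all 8 in control tumors, and 4 were lower in TCM than in control tumors, among them Gpnmb (-3.49 (SE 0.68, adjusted p = 0.0092)) and Trem2 (-2.36 (SE 0.52, adjusted p = 0.015)). Of 7 Kupffer cell markers, which mark the resident macrophages of the liver, 4 fell in TCM tumors and all 7 in control tumors. In peri-tumor liver of TCM mice 5 of the 7 fell, and their summed level was 219.5 to 279.7 CPM, against 448 to 1036 CPM in control peri-tumor liver. Of 3 tested B cell markers none was called in any comparison. Beside these marker counts, 17.3% of all tested genes rose and 15.6% fell in TCM tumors, and 22.0% rose and 21.2% fell in control tumors. Between TCM and control mice, 2.72% of all tested genes were lower in tumors and 7.35% in peri-tumor liver. The part of these cell types in the class II levels was not tested.

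Of 8 tested genes of class II processing, 2 rose in TCM tumors, and 3 rose and 1 fell in control tumors. Of all tested genes, 17.3% rose in TCM tumors, and 22.0% rose and 21.2% fell in control tumors. In peri-tumor liver of TCM mice 5 of the 8 fell, led by the endosomal proteases Lgmn (-1.27 (SE 0.203, adjusted p = 0.0015)) and Ctss (-1.72 (SE 0.28, adjusted p = 0.0015)) and by the thiol reductase Ifi30 (-1.66 (SE 0.31, adjusted p = 0.0038)). Between tumors of TCM and control mice Ctss (-1.29 (SE 0.27, adjusted p = 0.014)) and Lgmn (-0.82 (SE 0.200, adjusted p = 0.024)) fell. Between TCM and control, 7.35% of all tested genes fell in peri-tumor liver, and 2.72% fell and 4.55% rose in tumors. Ctss averaged 27.6 ± 9.92 CPM in TCM tumors, against 67.3 ± 2.33 CPM in control tumors, and 23.9 ± 2.15 CPM in TCM peri-tumor liver, against 78.9 ± 30.3 CPM in control peri-tumor liver (SD, n = 4). Of the 7 factors that bind class II promoters with Ciita, none rose or fell in TCM tumors, 1 fell in control tumors (Rfxap, -0.53 (SE 0.19, adjusted p = 0.037)), 1 was higher in TCM than in control tumors (Nfyb, 0.53 (SE 0.13, adjusted p = 0.027)) and none was called in peri-tumor liver.

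Interferon gamma induces both pathways, and of 18 tested genes of its pathway 5 rose and 1 fell in TCM tumors, and 6 rose and 1 fell in control tumors. The receptor chains Ifngr2 (0.87 (SE 0.12, adjusted p = 8.9e-05) in TCM and 1.36 (SE 0.13, adjusted p = 7.6e-07) in control mice) and Ifngr1 (1.59 (SE 0.27, adjusted p = 3.7e-04) in TCM and 1.49 (SE 0.27, adjusted p = 3.7e-04) in control mice) were among them. In peri-tumor liver of TCM mice Gbp5 (-1.63 (SE 0.38, adjusted p = 0.012)) and Irf2 (-0.72 (SE 0.19, adjusted p = 0.021)) fell and none rose, and between tumors of TCM and control mice none was called. Ifng itself had at most 0.22 CPM in any library. Among 5 tested co-stimulatory and checkpoint ligands, 3 rose in TCM tumors, and 2 rose and 1 fell in control tumors. Cd40, an activating receptor of antigen-presenting cells, rose in both, with 3.55 (SE 0.42, adjusted p = 1.6e-05) in TCM and 2.801 (SE 0.39, adjusted p = 3.7e-05) in control mice. Of 6 genes of class I folding and trimming, Tapbpl, a relative of tapasin, rose in TCM tumors (0.68 (SE 0.15, adjusted p = 0.0026)) and was lower in TCM than in control peri-tumor liver (-0.54 (SE 0.15, adjusted p = 0.027)), the trimming protease Erap1 fell in TCM tumors (-0.49 (SE 0.16, adjusted p = 0.027)), and none was called in control tumors. Beside the counts of these lists, 17.3% of all tested genes rose and 15.6% fell in TCM tumors, and 22.0% rose and 21.2% fell in control tumors. Between TCM and control, 7.35% of all tested genes fell in peri-tumor liver and 7.28% were called in tumors.

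Of 3 tested NKG2D ligands, which are class I relatives outside the H2 region read by NK cells, Raet1d (1.62 (SE 0.26, adjusted p = 0.0016)) and Raet1e (1.53 (SE 0.27, adjusted p = 0.0028)) were higher in peri-tumor liver of TCM mice than of control mice. In tumors of TCM mice both fell against peri-tumor liver and Ulbp1 rose. In tumors of control mice Raet1e and Ulbp1 rose. Of all tested genes, 6.71% were higher in TCM than in control peri-tumor liver. In TCM tumors 17.3% of all tested genes rose and 15.6% fell, and in control tumors 22.0% rose. For Raet1e the tumor effect differed between treatments, TCM minus control, by -1.69 (SE 0.38, adjusted p = 0.045) on the log2 scale.

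H2-Ke6, a steroid dehydrogenase gene that carries an H2 symbol for its place in the region, fell in tumors of both treatments. It had 32.8, 29.7, 35.99 and 29.6 CPM in tumors of TCM mice and 25.1, 21.7, 21.1 and 19.3 CPM in tumors of control mice. Around the tumors, H2-Ke6 had 47.9, 47.8, 40.6 and 45.5 CPM in TCM mice and 50.7, 50.03, 44.6 and 40.1 CPM in control mice. All tumors lay below all peri-tumor libraries, and TCM tumors lay above control tumors without overlap. Its log2 fold change was -0.51 (SE 0.11, adjusted p = 0.002) in TCM mice, -1.09 (SE 0.11, adjusted p = 1.7e-06) in control mice and 0.55 (SE 0.11, adjusted p = 0.0094) between TCM and control tumors, where 4.55% of all tested genes were higher, and these calls held without any 1 library. The difference of its log2 tumor effect, TCM minus control, was 0.58 (SE 0.15, adjusted p = 0.069) with all mice and 0.63 (adjusted p = 0.032) without control mouse 4. Of all tested genes 4.75% were called there without this mouse, against 1.11% with it. Exons of H2-Ke6 overlap Gm20427 on the same strand over 86.4% of their bases, so the reads of these genes cannot be told apart.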

How the data were processed

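The deposited table holds whole-number counts of reads per gene for the 16 libraries, as the authors made it without scaling, and the authors' deposited FPKM files hold those counts scaled for gene length and library total. A gene's length worked back from FPKM and counts differed between libraries by at most 0.0518% (14192 genes). Per the labels' protocols, total RNA was used with a stranded mRNA-seq kit. Builds mm9 and mm10 are both named in the submitters' processing notes. The aligner, the counter and the use of strand were not given in the sources used here. Gene names and coordinates come from GENCODE M21, promoters from RefSeq (GRCm38.p6). Of 54838 genes, 115 had no symbol (at most 0.0171% of a library's counts).

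Counts were tested with edgeR 4.0.16 in R 4.3.3 (TMM scaling, filterByExpr with a count minimum of 10 on the 4 groups, quasi-likelihood fit of the 16 libraries by group, 14865 genes, Benjamini-Hochberg per comparison, threshold 0.05). CPM are counts over the TMM-scaled total, and the SE is the absolute log2 fold change divided by the root of F. Means stand with the SD of 4 libraries. No 2 libraries of a group were copies, the lowest chi-square being 16.6 per degree of freedom. The fit was tested on simulated data. Tried as well were DESeq2 1.42.0, limma-voom 3.58.1 with sample weights, RLE factors, no filter, 1 CPM in 4 libraries, only the groups compared, a replicate block, leaving out control mouse 4 and leaving out each library in turn.

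The labels carry animal codes, so that each tumor is paired with the liver of its mouse. After group means were removed, the tissues of 1 mouse correlated at 0.24, 0.043, 0.091 and 0.11 in TCM mice and 0.15, 0.12, 0.063 and 0.23 in control mice, and for 7 of the 8 mice the best partner was their own. The members and lists were chosen with earlier results of these data known. Named with values in every library are H2-K1, H2-D1, B2m, Tap1, Psmb8, Nlrc5, H2-Aa, H2-Ab1, H2-Eb1, H2-DMb1, Cd74, Ciita and the 3 lowest p per class and comparison, and from each other list up to 3 genes with the lowest p and the genes the lists are built around. H2-T23, H2-Q4, H2-M3 and the heavy chain shares were added after their values were seen. Shared words are 50-base stretches of the longest transcript found in other genes too, as a percent. Sets of sinusoidal endothelial, cholangiocyte, stellate, T and NK cell and lipid presentation genes were also looked at. Of their tested genes 1 of 5, 1 of 3, 3 of 5, 1 of 9 and 1 of 3 rose in TCM tumors, and the same numbers rose in control tumors. In the same order 1, 0, 2, 0 and 1 fell in TCM tumors and 2, 1, 1, 0 and 1 in control tumors. Of all tested genes, 17.3% rose and 15.6% fell in TCM tumors, and 22.0% rose and 21.2% fell in control tumors.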

Additional observations from a re-analysis of the deposited data

Results flagged for a closer look

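In groups of 4 libraries, a library was marked where its gap to the nearest of the others took a larger part of the group's range than Dixon's critical value allows. Of 208 such groups 14 were marked, and chance marks about 1 in 20 groups. No cause was tested.

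Control mouse 4 accounted for 5 of the 14. In its tumor H2-K1 was low at 839.5 CPM, against 1395 to 1418 CPM in the other control tumors, and H2-D1 was low at 877 CPM, against 1347 to 1393 CPM. In its peri-tumor liver H2-D1 was low at 571 CPM, against 1014 to 1018 CPM in the other control mice, and Psme1, a proteasome activator, was low at 41.4 CPM, against 61.3 to 65.0 CPM. There the H2-Aa to H2-Eb1 ratio of FPKM was high at 0.606, against 0.468 to 0.472.

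In TCM tumors, Nlrc5 was high in mouse 2 at 32.6 CPM, against 18.3 to 20.6 CPM in the others, and Psme2 was low in the same library at 13.7 CPM, against 15.1 to 15.3 CPM. TCM mouse 3 had a low Psmb9, an immunoproteasome subunit, at 12.6 CPM, against 21.1 to 22.0 CPM, and a high H2-Q1 at 115 CPM, against 54.8 to 62.6 CPM.

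In TCM peri-tumor liver, Tapbp was low in mouse 3 at 45.3 CPM, against 71.9 to 74.1 CPM, the Psmb10 to Psmb7 ratio of FPKM was high in mouse 2 at 0.185, against 0.146 to 0.147, and Ptprc was high in mouse 4 at 9.47 CPM, against 7.49 to 7.78 CPM. In control peri-tumor liver, H2-T23 was high in mouse 1 at 347 CPM, against 284 to 291 CPM, and Tapbp was high in mouse 2 at 114 CPM, against 67.9 to 71.2 CPM.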

How the results depend on the processing

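No member changed direction past the threshold under any of the 8 alternative settings or without any 1 library. RLE factors changed no call over 170 tests of members. Apart from single libraries, 16 of 301 repeats of a called member lost the call and 69 of 990 repeats of an uncalled one gained it. Without 1 library, 57 of 320 lost and 28 of 1312 gained it. The causes were not tested.

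Class II members called in TCM tumors against peri-tumor liver, 2 in the main test, were 1 with no filter, 5 with DESeq2, 1 with limma-voom, 5 with only the groups compared and 5 with the replicate block, and in control mice 0 became 1 with the replicate block. Of all tested genes 17.3% rose in TCM tumors in the main test, 8.85% with no filter and 18.4% with DESeq2. With limma-voom 18.0% rose, with only the groups compared 17.2% and with the replicate block 17.6%. In control mice 22.0% rose in the main test and 22.6% with that block. Between TCM and control tumors, 0 class I calls became 2 with DESeq2, 3 with limma-voom, 1 with the block of the replicate number and 6 without control mouse 4. In peri-tumor liver, 4 class I calls became 8 with DESeq2, 10 with limma-voom, 7 with the block and 11 without control mouse 4, and 2 class II calls became 1 with no filter, 1 with only the groups compared and 6 without control mouse 4. All of these calls were lower in TCM mice. Of all tested genes 7.35% were lower there in the main test, 9.21% with DESeq2 and 11.2% with limma-voom. With the block 6.94% were lower, without control mouse 4 11.5%, with no filter 2.83% and with only the groups compared 5.86%. For the difference of the tumor effect, 0 class I calls became 1 with DESeq2 and 1 with limma-voom. Of all tested genes 1.11% were called there in the main test, 5.42% with DESeq2 and 4.06% with limma-voom. Between treatments mice share only a number, and same-numbered libraries correlated at -0.10 to -0.0043 in tumors and 0.0066 to 0.11 in peri-tumor liver.

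Of all genes, 1082 calls between tumors became 687 with no filter, 1805 with DESeq2, 2193 with limma-voom and 1877 without control mouse 4. In peri-tumor liver, 2091 became 3349 with limma-voom and 3434 without control mouse 4. For the difference of the tumor effect, 165 became 79 with no filter, 806 with DESeq2, 603 with limma-voom, 107 with the replicate block and 714 without control mouse 4.

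Without 1 library, class I calls ran from 14 to 16 (TCM tumors), 10 to 14 (control tumors), 0 to 4 (between tumors), 1 to 10 (between peri-tumor tissues) and 0 to 1 (difference of the tumor effect), and class II calls from 0 to 6, 0 to 1, 0 to 0, 1 to 6 and 0 to 0 in the same comparisons. Over all genes they ran from 4098 to 4559, 5759 to 6704, 404 to 1250, 1101 to 3228 and 58 to 665. H2-Q2, H2-K2 and Ciita had few counts, 389, 462 and 758 over all libraries, and what this does to their tests was not measured.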
